A study of Mus musculus with 2 samples.

Results

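Simple keratins and mesothelial genes were followed in RNA from the jejunal tunica muscularis, the muscle coat peeled from the mucosa, of mice at 15 days of age. They are 9 of the 18159 genes with a row in the expression table, and were taken by gene symbol: the keratins *Krt7*, *Krt8*, *Krt18*, *Krt19* and *Krt20* and the mesothelial genes *Msln*, *Upk3b*, *Wt1* and *Lrrn4*. All 9 had a row and were above 0 in both libraries. By the labels, both genotypes were on a C57BL/6 background and carried the Tg(Myh11-cre,-EGFP)2Mik transgene, which expresses Cre recombinase and eGFP from the *Myh11* promoter, so that recombination was directed to smooth muscle cells and neither epithelium nor mesothelium was the target. The labels give Dnmt1lox/lox as the strain of both samples, which together with Cre would not tell the control from the knockout, whereas the study's text describes *Dnmt1*-WT as smMHC Cre-eGFP/+ without naming a floxed allele. This conflict is not settled by the sources used here. *Dnmt1*-KO mice had lost *Dnmt1*, the maintenance DNA methyltransferase, in Cre-expressing cells, and *Dnmt1*-WT mice served as controls. Each genotype had 1 mRNA library, and per the methods 4 mice, 2 male and 2 female, stood behind each. How their RNA was combined is not given in the sources used here. Values are FPKM, that is, fragments per kilobase of transcript, adjusted for how many fragments each library had mapped, so that levels of different genes can be set side by side. Ratios are *Dnmt1*-KO over *Dnmt1*-WT. With 1 library per genotype no difference has a replicate check, no test between genotypes was possible, and the words higher and lower describe these 2 libraries.

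Keratins form the intermediate filaments of epithelial cells. A filament is built from heterodimers of a type I chain, here KRT18, KRT19 and KRT20, and a type II chain, here KRT7 and KRT8. Simple, single-layered epithelia such as the intestinal lining use these chains. The mesothelium, the flat cell sheet on the outer (serosal) face of the gut, shares most of them although it arises from mesoderm, and is set apart by mesothelin (*Msln*), uroplakin 3b (*Upk3b*), the transcription factor *Wt1* and the leucine-rich repeat protein gene *Lrrn4*. KRT20 is known as a keratin of differentiated intestinal epithelial cells.

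The genotype label of the control library was at odds with its free-text description, which names the knockout for both samples, and title and genotype label were followed. The *Dnmt1* gene itself had 11.58 FPKM in *Dnmt1*-WT and 7.58 FPKM in *Dnmt1*-KO (ratio 0.655). All 8 smooth muscle genes examined were above 1 FPKM in both libraries and lower in *Dnmt1*-KO, with *Myh11* at 2685.29 and 1255.51 FPKM. The FPKM summed to 429698 and 460845, and the median log2 ratio of all genes at 1 FPKM or more in both libraries was -0.03. Counting error cannot be given, since the table holds no read counts.

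Among the 9 genes, 4 of the 5 keratins were higher in *Dnmt1*-KO, by ratios between 1.69 and 2.34, while *Krt20* was lower and the mesothelial genes lay between 0.893 and 1.23. *Krt8* and *Krt18* at least doubled, *Krt19* came just short of it at 1.96, and none of the 9 was at most halved. Of the 16102 genes above 0 FPKM in both libraries, 11.8% had a ratio of 2 or more, 4.98% one of 0.5 or less and 50.3% one above 1. Ratios of this size were less common among better expressed genes. Of the 7054 genes that reached 10 FPKM in a library, as all members but *Krt20* did, 5.2% had a ratio of 2 or more, 2.93% one of 0.5 or less and 47.1% one above 1. In RNA of whole tissue, more cells of a type and more RNA per cell cannot be told apart.

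**Figure D1:**
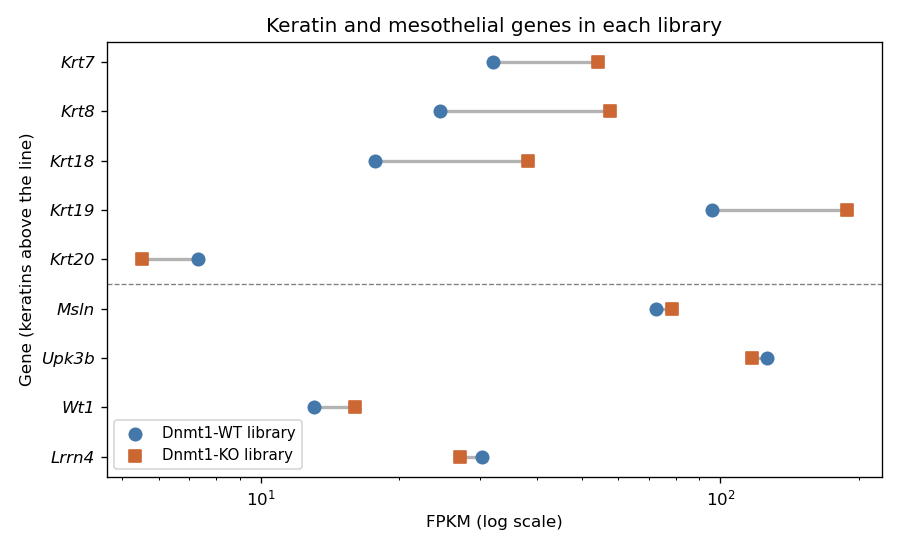
FPKM (log scale) of each member in the *Dnmt1*-WT library (circles) and the *Dnmt1*-KO library (squares), with the keratins above the dashed line and a grey bar joining both values of a gene. *Krt7*, *Krt8*, *Krt18* and *Krt19* are shifted to higher values in *Dnmt1*-KO, *Krt20* to a lower one, and the mesothelial pairs lie close together.

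The type II keratin *Krt8*, the usual partner of *Krt18* in simple epithelia, was at 24.61 FPKM in *Dnmt1*-WT and 57.53 FPKM in *Dnmt1*-KO. Its ratio of 2.34 was the highest of the 9. Of the 2980 genes whose geometric mean level lay within 2-fold of that of *Krt8*, 2.48% had a ratio as high or higher.

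*Krt18*, which encodes the type I partner, was at 17.75 FPKM in *Dnmt1*-WT and 38.1 FPKM in *Dnmt1*-KO, a ratio of 2.15. Among 3965 genes within 2-fold of its level, 2.95% had a ratio as high. The level of *Krt18* was 0.721 times that of *Krt8* in *Dnmt1*-WT and 0.662 times in *Dnmt1*-KO, so this pair kept nearly the same proportion while both were higher.

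*Krt19*, a type I keratin that lacks most of the tail domain, was the most abundant keratin of the table in both libraries. It was at 96.08 FPKM in *Dnmt1*-WT and 188.37 FPKM in *Dnmt1*-KO, a difference of 92.29 FPKM, and ranked 683 and 345 among all genes. The ratio of 1.96 is below the limit used for doubling, and centring the libraries on the median ratio put it at 2.00. Among 759 genes within 2-fold of its level, 4.08% had a ratio as high.

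*Krt7*, the other type II chain, stood at 32.09 FPKM in *Dnmt1*-WT and 54.29 FPKM in *Dnmt1*-KO. The ratio was 1.69, and 6.43% of 2705 genes of similar level had one as high. In the *Dnmt1*-WT library *Krt7* was more abundant than *Krt8*, and in *Dnmt1*-KO *Krt8* was slightly ahead.

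*Krt20* was the least abundant member and the only keratin of the 5 with a lower value, at 7.29 FPKM in *Dnmt1*-WT and 5.52 FPKM in *Dnmt1*-KO, a ratio of 0.757. Of the 5295 genes within 2-fold of its level, 79.0% had a ratio as high or higher. Its share of the summed FPKM of the 5 keratins was 4.1% in *Dnmt1*-WT and 1.61% in *Dnmt1*-KO.

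Summed over the 5 keratins, the level was 177.82 FPKM in *Dnmt1*-WT and 343.81 FPKM in *Dnmt1*-KO, a ratio of 1.93. The type I chains went from 121.12 to 231.99 FPKM and the type II chains from 56.7 to 111.82 FPKM, ratios of 1.92 and 1.97. Type I thus exceeded type II 2.14-fold in *Dnmt1*-WT and 2.08-fold in *Dnmt1*-KO, and without *Krt20* the quotients were 2.01 and 2.03. The excess of type I rested on *Krt19*, which made up 54.0% of the keratin sum in one library and 54.8% in the other.

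The mesothelial genes followed another course. *Upk3b*, a uroplakin made by mesothelial cells, was their most abundant, at 126.21 FPKM in *Dnmt1*-WT and 117.37 FPKM in *Dnmt1*-KO, a ratio of 0.930. *Msln*, which encodes the surface glycoprotein mesothelin, was at 72.35 and 78.36 FPKM, a ratio of 1.08. *Lrrn4* was at 30.34 FPKM in *Dnmt1*-WT and 27.1 FPKM in *Dnmt1*-KO, a ratio of 0.893. These ratios were all close to 1, with *Msln* on the higher side and *Upk3b* and *Lrrn4* on the lower. Among genes within 2-fold of the level of each, 40.0% had a ratio as high as *Msln*, 67.3% as *Upk3b* and 62.1% as *Lrrn4*.

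*Wt1*, which encodes a zinc finger transcription factor of the mesothelium, went from 13.07 to 16.07 FPKM, and its ratio of 1.23 was the highest of the 4. Even so, 19.5% of the 5279 genes within 2-fold of its level had one as high. The 4 genes together summed to 241.97 FPKM in *Dnmt1*-WT and 238.9 FPKM in *Dnmt1*-KO, a ratio of 0.987. The keratin sum was 0.735 times this mesothelial sum in *Dnmt1*-WT and 1.44 times in *Dnmt1*-KO. Being a quotient within each library, it does not depend on the scaling between them.

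**Figure D2:**
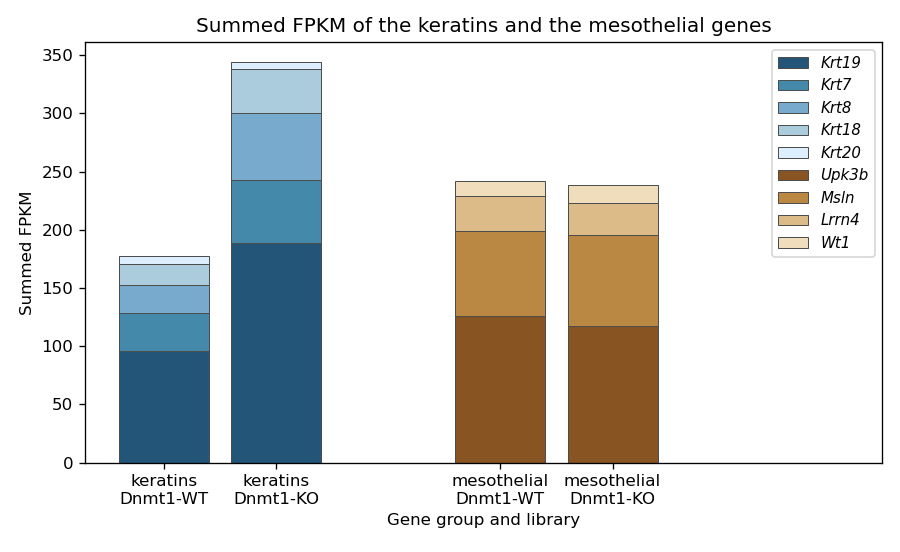
Summed FPKM of the keratins (left pair of bars) and of the mesothelial genes (right pair) in each library, stacked by gene. The keratin sum is 177.82 in *Dnmt1*-WT and 343.81 in *Dnmt1*-KO with *Krt19* as the largest part, and the mesothelial sums are 241.97 and 238.9.

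Further mesothelial genes were more spread than these 4, with ratios from 0.577 to 1.56. Of 12 such genes 11 had a row (*Muc16*, which encodes the binding partner of mesothelin, was not analysed here), 6 had a ratio above 1 and 5 below, and none at least doubled or was at most halved. The median log2 ratio of FPKM + 0.1 was 0.02, against 0.005 over all genes above 0 in both libraries, and the summed level was 357.37 FPKM in *Dnmt1*-WT and 376.03 FPKM in *Dnmt1*-KO. *Aldh1a2*, a retinoic acid-synthesizing enzyme, was at 88.87 and 67.48 FPKM, and *Upk1b*, the uroplakin next to *Upk3b* in level, at 32.41 and 45.98 FPKM. The extremes were *Pkhd1l1*, with a ratio of 0.577, and *Pdpn*, which encodes podoplanin and is also known from lymphatic vessels, with 1.56. Other cells of the gut wall also express *Calb2*, *Cldn15*, *Gpm6a* and *Pdpn*, and the median without these 4, an alternative chosen after the data were seen, was -0.22.

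Of the 4 uroplakin genes with a row, *Upk3b* and *Upk1b* had the values given above, and the other two were low, with *Upk1a* at 0.06 FPKM in *Dnmt1*-WT and 0.28 FPKM in *Dnmt1*-KO and *Upk3a* listed at 0 and at 0.13 FPKM. *Upk2* and *Upk3bl* were not analysed here. Among the relatives of *Lrrn4*, *Lrrn4cl* was at 6.58 and 11.19 FPKM and *Lrrn1* at 3.63 and 2.57 FPKM. Of the 5 genes of that family, *Lrrn4* included, 3 had a ratio above 1 and 2 below, and none at least doubled or was at most halved. Of 7 regulators linked to the change of mesothelial cells into mesenchymal cells, none at least doubled or was at most halved among the 6 above 0 in both libraries. In RNA of whole tissue these values cannot be assigned to mesothelial cells, and such a change was not tested. *Snai1*, a repressor of epithelial genes, was at 4.4 and 5.86 FPKM, and *Twist1* had the lowest ratio, 0.509. The remaining gene, *Tbx18*, was listed at 0 in *Dnmt1*-WT and at 0.05 FPKM in *Dnmt1*-KO.

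Markers of the intestinal epithelium, which also uses simple keratins, were compared through 3 lists. All 15 general epithelial genes had a row and a ratio above 1, 9 at least doubled, the median log2 ratio was 1.08, and the sum was 59.41 FPKM in *Dnmt1*-WT and 123.68 FPKM in *Dnmt1*-KO. The 9 that doubled were all at 4.7 FPKM or less in *Dnmt1*-WT. *Lgals4*, *Epcam* and *Vil1*, which had more, did not double. *Epcam*, the epithelial adhesion molecule, was at 7.3 and 13.95 FPKM, a ratio of 1.91 close to that of *Krt19*. *Cdh1*, which encodes E-cadherin, was at 1.45 and 3.51 FPKM, and *Lgals4*, the most abundant gene of the list, at 28.02 and 55.65 FPKM. None of the 15 was at 0 in either library. The keratin sum was 2.99 times the sum of this list in *Dnmt1*-WT and 2.78 times in *Dnmt1*-KO, a much smaller shift than that against the mesothelial sum. Any list with a sum ratio near that of the keratins (1.93) gives a small shift, whatever its cells. The sum ratio was 2.08 for this list and 2.17 for absorptive enterocyte genes. *Krt20* parted from the list, since it was 0.123 times the epithelial sum in *Dnmt1*-WT and 0.0446 times in *Dnmt1*-KO.

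Of 10 genes of absorptive enterocytes, 5 had a ratio of 2 or more and 2 one of 0.5 or less. The fatty acid binding protein gene *Fabp1* was at 42.13 FPKM in *Dnmt1*-WT and 145.49 FPKM in *Dnmt1*-KO, while the brush border sucrase gene *Sis* was at 1.93 and 0.51 FPKM and the peptide transporter gene *Slc15a1* at 0.67 and 0.28 FPKM. The median log2 ratio was 0.86, and the sum went from 484.08 to 1050.49 FPKM. *Apoa4*, at 208.37 and 433.8 FPKM, and *Apoa1*, at 158.32 and 327.3 FPKM, together carried most of both sums. *Krt20* was thus on the same side as *Sis* and *Slc15a1* and not as the other 8 genes of the list. Of 9 genes of Paneth and goblet cells, 8 were above 0 in both libraries and all of these had a ratio above 1, with 3 at least doubled. *Mmp7* was listed at 0 in *Dnmt1*-WT and at 0.77 FPKM in *Dnmt1*-KO. The Paneth cell defensin gene *Defa24* was at 12.43 and 125.32 FPKM. *Tff3*, a goblet cell peptide gene, was at 39.55 and 66.05 FPKM, the median log2 ratio of the list was 0.85, and its sum went from 73.11 to 231.51 FPKM.

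**Figure D3:**
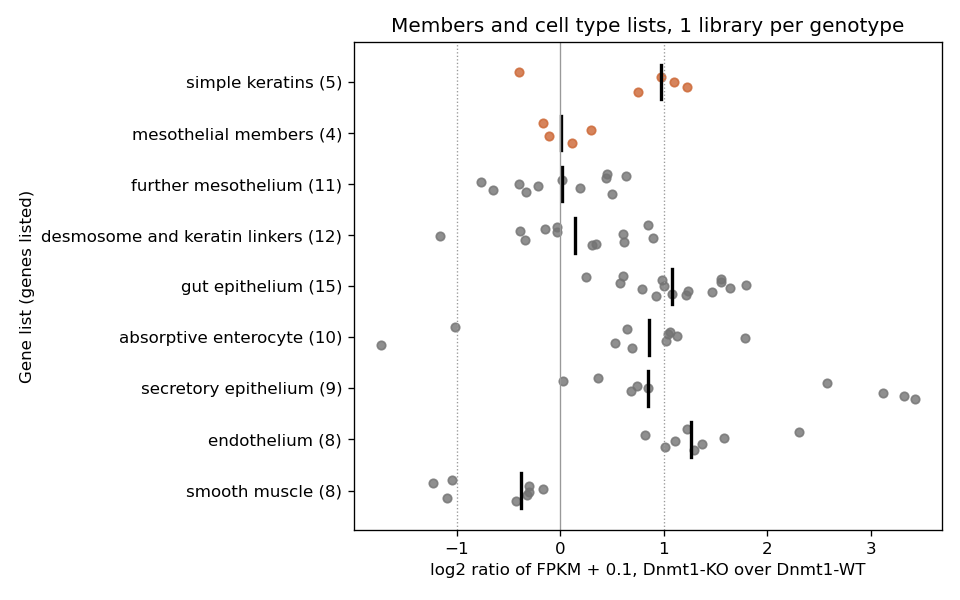
Each point is a gene, placed by its log2 ratio of FPKM + 0.1 (*Dnmt1*-KO over *Dnmt1*-WT). Black bars are list medians, the members are coloured, dotted lines mark a doubling and a halving, and the number of genes with a row stands in brackets. The keratin median of 0.97 lies between those of the absorptive enterocyte (0.86) and secretory epithelium (0.85) lists and those of the gut epithelium (1.08) and endothelium (1.26) lists, and the mesothelial median of 0.005 near that of the further mesothelial genes (0.02). The keratin median is the value of *Krt19*, the middle gene of that list.

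Markers of other cell types of the gut wall and its surroundings also differed between the libraries. All 8 endothelial genes had a ratio above 1 and 7 at least doubled, with a sum of 51.83 FPKM in *Dnmt1*-WT and 128.52 FPKM in *Dnmt1*-KO, and the keratin sum was 3.43 and 2.68 times as large. *Pecam1*, an adhesion molecule gene of vessel walls, was at 15.76 and 38.84 FPKM. All 6 leukocyte genes at least doubled, with sums of 26.08 and 85.48 FPKM. Of 7 adipocyte genes, 6 at least doubled and *Lep* was listed at 0 in *Dnmt1*-WT and at 0.2 FPKM in *Dnmt1*-KO, and the sums were 109.79 and 1204.6 FPKM. *Fabp4* carried most of both sums, at 103.72 and 874.84 FPKM. The 7 pancreatic acinar genes summed to 40.87 FPKM in *Dnmt1*-WT and 1.3 FPKM in *Dnmt1*-KO, where *Cela2a*, *Prss2*, *Cpa1*, *Pnlip* and *Cel* were listed at 0. The smooth muscle genes summed to 16754.91 and 12123.46 FPKM, with 3 of 8 at most halved. The part of epithelial, endothelial or other cells in the keratin values was not tested. With 1 library per genotype, genotype and tissue preparation cannot be told apart.

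Genes of desmosomes and of the proteins that link keratins to them had ratios on both sides of 1. None of the 12 at least doubled, 1 was at most halved, 6 had a ratio above 1, and the sums were 179.45 FPKM in *Dnmt1*-WT and 183.3 FPKM in *Dnmt1*-KO. *Dsp*, which encodes desmoplakin, the protein that ties keratin filaments to desmosomes, was at 2.03 and 2.53 FPKM. The highest ratio was that of the plakophilin gene *Pkp3*, 1.96 at 0.94 and 1.84 FPKM, and the lowest that of the desmosomal cadherin gene *Dsg2*, 0.433 at 3.63 and 1.57 FPKM. *Perp*, *Pkp1* and *Dsc2*, which encode further desmosomal proteins, had ratios of 1.81, 1.59 and 1.59. *Plec* and *Dst*, which encode large linker proteins that muscle also expresses, carried most of both sums and had ratios of 0.902 and 0.982.

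The 5 simple keratins made up 89.4% of the FPKM of all keratin genes in *Dnmt1*-WT and 91.3% in *Dnmt1*-KO. Of the 22 other keratin genes with a row, 6 reached 1 FPKM in a library. *Krt17*, a type I keratin of basal and stressed epithelia, was at 2.35 FPKM in *Dnmt1*-WT and 9.96 FPKM in *Dnmt1*-KO, a ratio of 4.24, and *Krt80* was at 3.36 and 8.18 FPKM, a ratio of 2.44. *Krt14*, a basal cell keratin, was lower, at 9.38 and 6.95 FPKM. *Krt10*, *Krt23* and *Krt222* had ratios of 0.984, 0.984 and 0.807. *Krt5*, the usual partner of *Krt14*, was listed at 0 in *Dnmt1*-WT and at 0.28 FPKM in *Dnmt1*-KO. The remaining genes were all under 1 FPKM.

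The keratin genes that were higher together are not all neighbours. By the GENCODE M21 annotation of GRCm38, *Krt8* (chr15:101996698-102004482, minus strand, 9 exons) and *Krt18* (chr15:102028180-102032027, plus strand, 7 exons) are 23697 bases apart with no protein-coding gene between them. *Krt7* (chr15:101411043-101430313, plus strand) lies 566384 bases from *Krt8*, and 22 keratin genes stand between. *Krt19* (chr11:100140810-100148665) and *Krt20* (chr11:99428403-99438150) are both on the minus strand of the type I cluster, 702659 bases apart. They had ratios of 1.96 and 0.757. The mesothelial genes are spread over 3 chromosomes: *Msln* at chr17:25748613-25754378, *Upk3b* at chr5:136038496-136046487, *Wt1* at chr2:105126529-105173616 and *Lrrn4* at chr2:132868305-132880891. All 9 are protein coding.

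Reads of some members can be shared with other genes. The coding transcript of *Krt8* shares 941 bases at 98.6% identity with the pseudogene *Krt8-ps*, and no other member shares at least 100 bases at 95% identity with a transcript outside its own gene, apart from 102 bases that *Krt8* shares with the overlapping *Gm36026*. *Gm36026* lies antisense to *Krt8* and *Gm671* antisense to *Krt7*. None of these 3 genes has a row of its own, and whether counting used strand is not given in the sources used here, so the values of *Krt8* and *Krt7* may include such reads.

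Promoter windows were examined because 4 keratins were higher together and the deleted enzyme maintains CpG methylation. Windows of 300 bases, from 250 before to 50 after the RefSeq start (GRCm38.p6), were matched for 6 of the 9 members: *Krt7*, *Krt8*, *Krt18*, *Krt20*, *Upk3b* and *Lrrn4*. No window was matched for *Krt19*, the most abundant of the 4 higher keratins, so its promoter was not examined. Whether promoter CpG bears on the keratin ratios was not tested. The stretches printed here are the parts of 4 windows that lie before the start by both RefSeq and GENCODE, 5′ to 3′ on the gene's strand, with every CpG in capitals. They show the pair that doubled, the keratin that was lower and the most abundant mesothelial gene, at chr15:102004483-102004592, chr15:102027966-102028179, chr11:99438154-99438403 and chr5:136038246-136038495.

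Krt8: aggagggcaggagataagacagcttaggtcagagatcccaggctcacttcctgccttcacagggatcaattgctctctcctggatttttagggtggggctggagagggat

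Krt18: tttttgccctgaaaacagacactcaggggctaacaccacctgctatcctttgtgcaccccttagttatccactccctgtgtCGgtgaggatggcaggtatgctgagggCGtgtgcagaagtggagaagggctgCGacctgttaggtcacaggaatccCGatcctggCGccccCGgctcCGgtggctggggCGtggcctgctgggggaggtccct

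Krt20: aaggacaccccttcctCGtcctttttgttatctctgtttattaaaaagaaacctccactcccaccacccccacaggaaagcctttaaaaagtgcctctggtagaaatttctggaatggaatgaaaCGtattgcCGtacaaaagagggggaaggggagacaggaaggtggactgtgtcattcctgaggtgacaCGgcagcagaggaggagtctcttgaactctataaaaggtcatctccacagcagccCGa

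Upk3b: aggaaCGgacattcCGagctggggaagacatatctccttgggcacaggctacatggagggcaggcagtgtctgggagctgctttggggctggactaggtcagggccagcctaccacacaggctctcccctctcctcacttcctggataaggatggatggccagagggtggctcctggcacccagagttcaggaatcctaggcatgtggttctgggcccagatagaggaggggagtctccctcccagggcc

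The stretch of *Krt8* holds 0 CpG in 110 bases and that of *Krt18* 8 in 214 bases. Over whole windows, *Krt7* had 21 CpG and *Krt18* 17, numbers reached by 24.8% and 31.4% of the 32851 windows of 27025 genes. *Lrrn4* had 7, *Krt8* and *Krt20* 6 each and *Upk3b* 2, against a median of 7. The GC box GGGCGG, searched on both strands, was found 4 times in the window of *Krt7* and in no other of the 6, and is present in 35.7% of all windows. TATAAA, found in 13.6% of all windows, occurs in those of *Krt8* and *Krt20*, in *Krt8* as matches on both strands that overlap. The match in *Krt20* begins 29 bases before the RefSeq start. Those in *Krt8* begin 3 and 1 bases before it, which is within the GENCODE gene. The AP-1 motif TGANTCA, present in 7.81% of windows, was in none of the 6. Neither was the CCAAT box, present in 37.4%, nor the E-box CACGTG, present in 7.15%. The RefSeq starts of *Krt7*, *Krt8*, *Krt18* and *Lrrn4* lie 1360, 140, 36 and 29 bases inside the GENCODE genes, so the whole window of *Krt7* and parts of the others fall within the annotated gene. Methylation of these windows was not analysed here.

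**Figure D4:**
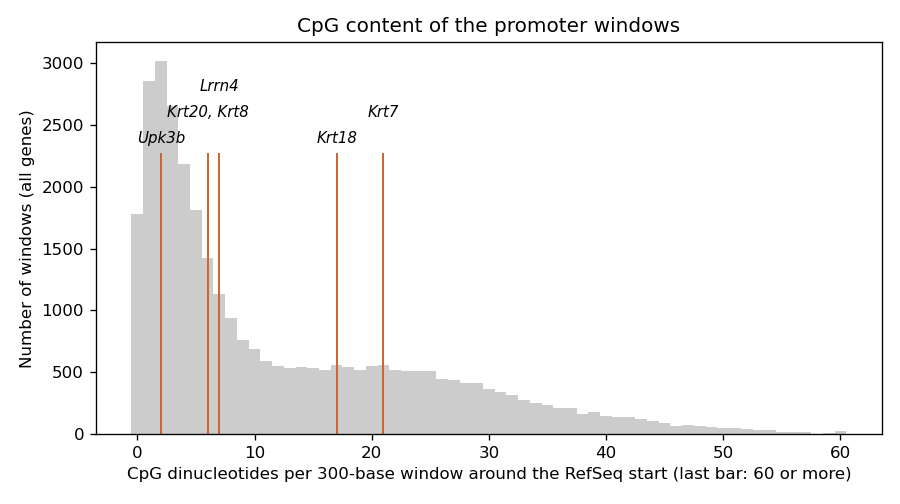
Number of CpG dinucleotides per 300-base promoter window over all genes (grey bars, number of windows) and in the windows of 6 members (orange lines). *Krt7* (21) and *Krt18* (17) lie above the median of 7, *Krt8* and *Krt20* share a value of 6, *Lrrn4* has 7 and *Upk3b* 2.

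The table also gives the number of transcript variants found per gene and library. It was the same in both libraries for 8 of the 9 members, and for 73.9% of all genes above 0 in both. *Krt7*, *Krt8*, *Krt18* and *Krt20* had 1 variant each, *Krt19* and *Upk3b* 2, and *Wt1* and *Lrrn4* 3. *Msln* was the exception, with 3 in *Dnmt1*-WT and 4 in *Dnmt1*-KO.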

How the data were processed

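Total RNA of jejunal tunica muscularis was sequenced as TruSeq RNA libraries, 1 per genotype. The authors deposited FPKM per gene, rounded to 2 decimals, with numbers of transcript variants and their own fold changes. The fold changes were not used. The submitters' processing notes name TopHat 1.4.1, Cufflinks 2.0.2 and mm10, without saying which step each served.

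Samples were grouped by the genotype label. Plain ratios of FPKM were taken over genes above 0 in both libraries, calling a ratio of at least 2 doubled and one of at most 0.5 halved. Lists were summarised by counts and the median log2 ratio of FPKM + 0.1. Counting was tested on simulated data. Members and lists were chosen with earlier results of these data known. The rule for named genes took all members, examples from each list among the genes with the highest FPKM and the largest ratio, and other keratins at 1 FPKM or more. Any other list gene in the text was picked with its value in view, and not every gene the rule allows is printed. With 2 libraries a pattern is a single ratio, so no genes most like a member were sought.

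Positions came from GENCODE M21 and promoter windows from RefSeq (GRCm38.p6). Shared transcript sequence was searched with BLAST 2.17.0. Python 3.11.15, numpy 2.4.6, pandas 2.3.3 and matplotlib 3.10.9 were used. Alternatives were the scaling between libraries, the FPKM added, the fold and a filter at 1 FPKM. Read depth per gene is unknown, and the lowest FPKM above 0 was 0.03 in both libraries.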

Additional observations from a re-analysis of the deposited data

How the results depend on the processing

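Across the scalings and the added FPKM, the ratios ranged from 2.18 to 2.39 for *Krt8*, 2.00 to 2.19 for *Krt18*, 1.83 to 2.00 for *Krt19*, 1.58 to 1.73 for *Krt7* and 0.706 to 0.786 for *Krt20*, and none of the 9 members changed direction. *Krt19* passed a doubling when the libraries were scaled to the median ratio (2.001) or the upper quartile (2.003). The keratin median, which is the value of *Krt19* as the middle of the 5 keratins, then stood at 1.0 and 1.001. A fold of 1.5 raised the members counted as higher from 2 to 4, and all genes counted as higher from 1893 to 3167. The mesothelial median, near 0, turned negative when libraries were scaled to the FPKM sum (-0.096), or to that sum without small RNA genes (-0.09). So did the median of the further mesothelial genes, at -0.081 and -0.075, and at -0.217 without 4 genes of other gut wall cells. For other keratins the median was 0.61 and became -0.022 with genes under 1 FPKM in both libraries left out. The order of the keratin and epithelial medians also depended on the setting. With 1 FPKM added, the gut epithelium median was 0.841, below the keratin median of 0.964. Under the filter at 1 FPKM, the absorptive enterocyte median was 1.026, above the keratin median of 0.971. The type I over type II quotient, *Dnmt1*-KO over *Dnmt1*-WT, was 0.971 with all 5 keratins and 1.009 without *Krt20*. Of the genes above 0 in both libraries, 1893 were counted as doubled and 802 as halved. Over the same genes these counts were 783 and 278 with 1 FPKM added and 1843 and 771 with 0.01 FPKM added, alternatives chosen after seeing the data. With genes at 0 in 1 library also admitted, they were 859 and 298 with 1 FPKM added and 2796 and 1301 with 0.01 FPKM added. The filter at 1 FPKM left 1258 and 506, and a fold of 1.5 counted 2030 genes as lower. No causes were tested. With 1 library per genotype and no read counts, the precision of any single value is unknown.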
